A study of Homo sapiens with 4 samples.

Results

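The genes described here are 5 transfer RNAs (tRNAs) that are read from the heavy-strand transcript of the human mitochondrial genome: MT-TI, MT-TM, MT-TW, MT-TD and MT-TR, which carry isoleucine, methionine, tryptophan, aspartate and arginine. They were chosen by their position, as 5 of the 37 mitochondrial genes and 5 of the 14 tRNAs of that strand. In the gene table MT-TI and MT-TM lie between the mRNAs of ND1 and ND2, and MT-TW lies between ND2 and COX1. MT-TD lies between COX1 and COX2, and MT-TR between ND3 and ND4L, so MT-TR has no cytochrome oxidase mRNA beside it. HEK-293T is an established line derived from human embryonic kidney. Its mitochondria were isolated and exposed to 1% dimethyl sulfate (DMS) for 5 min at 37 °C. One group was wild type (2 libraries) and the other was an LRPPRC knockout (2 libraries). Both groups came from cells grown in the same supplemented medium and both received DMS. LRPPRC is a nuclear-encoded RNA-binding protein that stabilises mitochondrial mRNAs. Its own transcript was not analysed here, so the labels could not be checked by the deleted gene. Whether the knockout cells were 1 clone or several is not given in the sources used here.

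DMS methylates adenine and cytosine at the face that pairs with another base, so bases in a helix are shielded. The reverse transcriptase used, TGIRT-III, reads through the methyl group and leaves a mismatch. The value analysed is therefore the percentage of mismatches at each position, with adenine and cytosine (A and C) as the probed bases and guanine and thymine (G and T, standing for uracil in the RNA) as the background. A value after ± is the SD of the 2 libraries in that group, and a standard error is marked SE. The smallest p that an exact permutation test can give here is 0.333. An untreated library was not analysed here, and the depth is unknown, since no read counts come with the fractions.

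In human mitochondria the long heavy-strand transcript is cut at tRNAs, which punctuate it between the mRNAs and are released by cleavage at their 5′ and 3′ ends. A tRNA folds into a cloverleaf of an acceptor stem, a D arm, an anticodon arm and a T arm, and mitochondrial tRNAs often have short or irregular D and T arms. Several of their bases are methylated by the cell itself, and a methyl group at the pairing face gives a mismatch without any DMS. Fragments of a finished tRNA and fragments of a longer transcript that still contains it cannot be told apart in these values.

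The sequences are shown first because the arms and the probed bases decide what each value can say. They were read 5′ to 3′ from the base column of the heavy-strand files, with T for U. Capitals mark bases left unpaired in the cloverleaf, including mismatched pairs inside stems.

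MT-TI: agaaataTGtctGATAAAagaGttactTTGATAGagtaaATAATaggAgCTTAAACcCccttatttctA

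MT-TM: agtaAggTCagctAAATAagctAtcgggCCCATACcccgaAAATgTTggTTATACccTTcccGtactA

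MT-TW: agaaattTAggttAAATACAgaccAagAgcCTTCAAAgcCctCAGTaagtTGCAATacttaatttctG

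MT-TD: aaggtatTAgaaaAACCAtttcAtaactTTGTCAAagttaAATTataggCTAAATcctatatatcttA

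MT-TR: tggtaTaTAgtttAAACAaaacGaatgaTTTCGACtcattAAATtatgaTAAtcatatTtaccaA

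In the numbering of GRCh38.p14 these are MT:4263-4331, MT:4402-4469, MT:5512-5579, MT:7518-7585 and MT:10405-10469, all on the plus strand, and the files number each base 1 lower. Each is a whole tRNA gene with no intron. The anticodon is GAT in MT-TI, CAT in MT-TM, TCA in MT-TW, GTC in MT-TD and TCG in MT-TR. The genes are 65 to 69 nt long and hold 338 nt in all, of which 184 are A or C. The cloverleaves have 97 pairs, 95 of them Watson-Crick and 2 of them G with U, and 6 further opposed bases in the stems do not match. The stems of MT-TM hold 3 such mismatches and those of MT-TD hold 0. After natively modified sites were set apart, 178 A and C positions remained. Every value below refers to these unless it names a modified site, and positions are counted from 1 at the 5′ end of each tRNA.

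The same sequences show where the mismatches lay in wild type, with capitals for every A or C at 2% or more in the wild-type mean, natively modified sites included.

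MT-TI: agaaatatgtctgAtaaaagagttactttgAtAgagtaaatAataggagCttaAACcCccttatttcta

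MT-TM: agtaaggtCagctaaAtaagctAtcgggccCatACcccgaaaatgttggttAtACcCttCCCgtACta

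MT-TW: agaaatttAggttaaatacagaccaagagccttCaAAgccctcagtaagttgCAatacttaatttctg

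MT-TD: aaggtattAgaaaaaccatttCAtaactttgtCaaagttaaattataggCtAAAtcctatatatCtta

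MT-TR: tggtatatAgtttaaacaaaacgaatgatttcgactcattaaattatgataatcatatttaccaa

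Apart from modified sites, 35 positions of the 5 tRNAs reached 2% in wild type, and 27 of the 35 were unpaired. MT-TM held 15 of them, MT-TI and MT-TD 8 each, MT-TW 4 and MT-TR 0. In the knockout 27 positions reached 2%. The wild-type means ran from 0.104% in MT-TW to 8.90% in MT-TM. Of the 5 highest positions in each tRNA, 25 in all, 21 were unpaired.

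**Figure D1:**
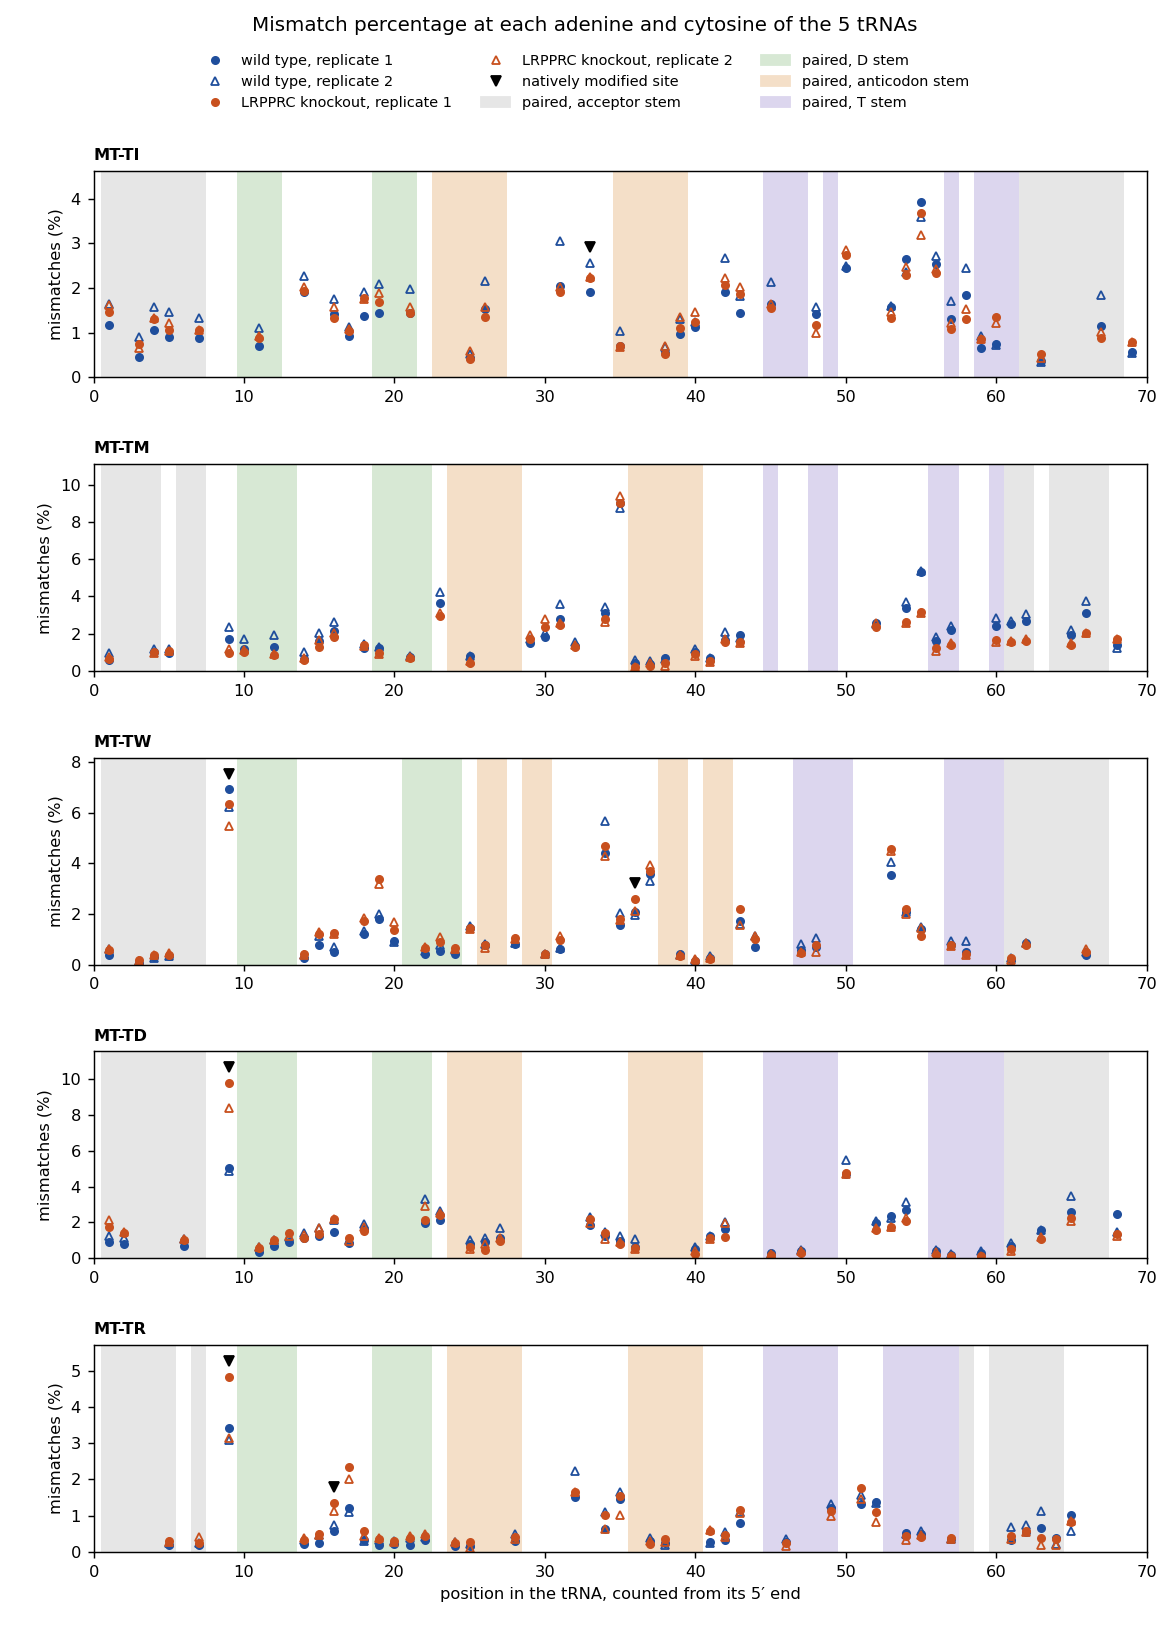
Mismatches (%) at every A and C of the 5 tRNAs against the position from the 5′ end, with 1 panel a tRNA and its own vertical scale, circles and triangles for the replicates, and shading for the paired bases of each stem. Apart from the marked modified sites, the highest point lies in the anticodon loop in MT-TM (9.40%) and MT-TW (5.68%), in the T loop in MT-TI (3.92%) and MT-TD (5.48%), and in the D loop in MT-TR (2.33%, knockout replicate 1).

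The overall level of the 5 tRNAs differed between them more than between the groups. MT-TM had the highest mean over its tested A and C positions, with 1.96% and 2.21% in the wild-type libraries and 1.62% and 1.69% in the knockout libraries. MT-TI had 1.35% and 1.67% in wild type against 1.39% and 1.47% in the knockout. MT-TD had 1.32% and 1.61% against 1.28% and 1.37%. These last pairs of groups overlap, while those of MT-TM do not. MT-TW had 1.05% and 1.21% in wild type against 1.28% and 1.27% in the knockout, which do not overlap. MT-TR had the lowest values, 0.556% and 0.679% in wild type against 0.669% and 0.591% in the knockout, which overlap. In wild type MT-TI (1.51% ± 0.231) and MT-TD (1.46% ± 0.202) did not differ beyond their spread, and MT-TW (1.13% ± 0.113) lay between these and MT-TR (0.617% ± 0.0866). Wild-type replicate 2 was above replicate 1 at 150 of the 178 positions, and knockout replicate 2 above replicate 1 at 101.

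**Figure D2:**
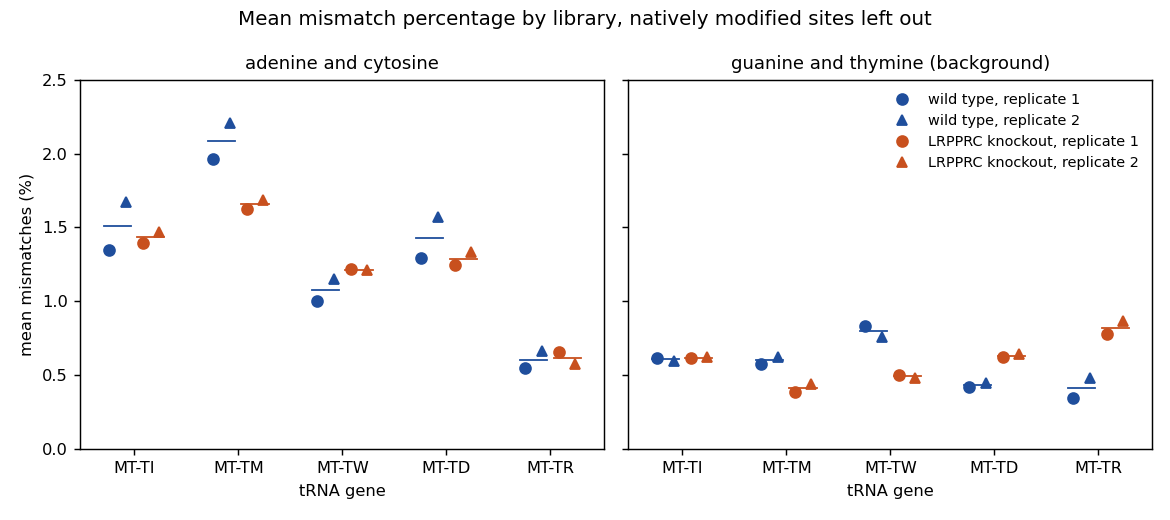
Mean mismatches (%) per library at A and C (left) and at G and T (right) in each tRNA, without modified sites and without a limit on low values, where points are libraries and lines are group means. The A and C means of MT-TM are lower in both knockout libraries and its G and T mean is too, while the G and T means of MT-TD and MT-TR are higher in both knockout libraries. The G and T mean of MT-TW is lower in both, though its G and T median, not drawn, was higher (0.222% ± 0.0251 to 0.330% ± 0.0163).

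The fall of the whole heavy-strand profile in the knockout sets how these values read. The median tested A or C position of that strand moved by -0.63 on the log2 scale in the deposited fractions. Each library was therefore centred on its own median, and changes are given as log2 of the fraction plus 0.001, both after centring and without it. After centring, limma with Benjamini-Hochberg adjustment over the 37 genes called all 5 tRNAs higher in the knockout. Of all 37 genes tested 83.8% were called, made up of 59.5% higher and 24.3% lower. Centring moves the strands in opposite directions, and among the 28 heavy-strand genes, the fitting background for these tRNAs, 82.1% were called, 78.6% higher and 3.57% lower. The changes were 0.78 in MT-TW (SE 0.10, adjusted p 0.00391), 0.69 in MT-TR (SE 0.13, adjusted p 0.0116), 0.60 in MT-TI (SE 0.13, adjusted p 0.0187), 0.46 in MT-TD (SE 0.12, adjusted p 0.0319) and 0.28 in MT-TM (SE 0.08, adjusted p 0.0396). Without knockout replicate 1 limma called 0 of the 5, with adjusted p from 0.0503 to 0.128, and without knockout replicate 2 it also called 0, with adjusted p from 0.0515 to 0.152. Without either wild-type library all 5 were called.

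Centring shifts all 5 by the same amount, so without it their order and the differences among them stay. Their signs and the calls can change. MT-TM then fell by 0.35 (adjusted p 0.0124). The other 4 did not pass the threshold, with 0.15 in MT-TW (adjusted p 0.187), 0.06 in MT-TR (0.757), -0.03 in MT-TI (0.802) and -0.17 in MT-TD (0.202). Limma called 73.0% of genes on that scale, 8.11% higher and 64.9% lower, and among the heavy-strand genes it called 78.6%, with 7.14% higher and 71.4% lower. The other 9 heavy-strand tRNAs had 6 higher, 0 lower and 3 not called after centring, and 2 higher, 5 lower and 2 not called without it. Their median change was 0.44 after centring and -0.19 without it, beside 0.60 and -0.03 for the 5 tRNAs and 0.16 and -0.27 for all 37 genes. Over the 28 heavy-strand genes it was 0.22 and -0.41. The genes with the centred change nearest to the mean of the 5, over the 4 libraries, were TRNT (distance 0.0750), TRNV (0.0754) and TRNF (0.119), the tRNAs for threonine, valine and phenylalanine.

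A difference taken within a library needs no scaling. Relative to the 6 mRNAs that adjoin them, the 5 tRNAs stood at -1.53 and -1.27 in the wild-type libraries and at -1.04 and -1.01 in the knockout libraries, on the log2 scale. The groups did not overlap, and the gap was 0.37 narrower in the knockout (exact permutation p = 0.333, two-sided). Each tRNA against its own neighbouring mRNAs gave the same direction with no overlap. The gap narrowed by 0.59 for MT-TW, 0.53 for MT-TR, 0.45 for MT-TI, 0.22 for MT-TD and 0.17 for MT-TM. Without wild-type replicate 1 the narrowing was 0.24 for the 5 together, 0.29 for MT-TI, 0.07 for MT-TD and 0.06 for MT-TM, and without wild-type replicate 2 it was 0.37 for MT-TD and 0.27 for MT-TM. With A alone the groups overlapped in MT-TD (0.07) and MT-TM (0.10), and with a pseudocount of 0.0001 in MT-TD (0.20). Against the other 9 heavy-strand tRNAs the 5 stood at 0.0189 ± 0.0448 in wild type against 0.0201 ± 0.0277 in the knockout, which overlap (exact permutation p = 1.00).

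The 20 nt on each side of the tRNAs give the step on a short scale, and it was not seen at every border. In the 20 nt before MT-TI, at the end of ND1, the A and C mean was 2.27% ± 0.0871 in wild type against 1.79% ± 0.0597 in the knockout. In the 20 nt after MT-TM, at the start of ND2, it was 2.91% ± 0.0371 and 1.77% ± 0.0276. After MT-TD, in COX2, it was 2.78% ± 0.0433 and 2.18% ± 0.0257, and after MT-TR, in ND4L, it was 2.52% ± 0.0822 and 1.29% ± 0.0304. Before MT-TW, in ND2, it was 1.97% ± 0.0400 and 1.76% ± 0.0280, and before MT-TR, in ND3, 2.09% ± 0.0777 and 1.64% ± 0.201. All of these mRNA flanks were lower in both knockout libraries. The stretches after MT-TI and before MT-TM lie opposite MT-TQ, a light-strand tRNA, and went from 2.23% ± 0.518 to 1.65% ± 0.0930 and from 2.14% ± 0.392 to 1.60% ± 0.0584.

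Mismatches followed the cloverleaf in every library. Over the 5 tRNAs unpaired A and C had 1.75% and 1.97% in wild type against 1.79% and 1.81% in the knockout. Paired A and C had 0.804% and 1.04% in wild type against 0.764% and 0.798% in the knockout. Unpaired bases were above paired ones in all 5 tRNAs in all 4 libraries. The 5 A and C in mismatched stem positions had 1.15% ± 0.142 in wild type against 0.956% ± 0.000849 in the knockout. In wild type they lay above the paired mean of their own tRNA in MT-TI (1.82% beside 1.15%) and below it in MT-TM (1.09% beside 1.57%) and MT-TW (0.502% beside 0.523%).

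As a log2 difference per library, unpaired minus paired for the mean of the 5 tRNAs was 0.95 and 0.83 in the wild-type libraries and 1.08 and 1.04 in the knockout libraries, an increase of 0.17 with no overlap (exact permutation p = 0.333, two-sided). It was 0.11 without wild-type replicate 2, 0.08 with a pseudocount of 0.01, 0.09 with A alone and 0.30 with C alone. The contrast was wider in the knockout without overlap in MT-TM (0.62 ± 0.0366 to 0.95 ± 0.0273), MT-TW (1.28 ± 0.0498 to 1.54 ± 0.0102) and MT-TR (0.82 ± 0.0635 to 1.05 ± 0.0579). In MT-TI (0.73 ± 0.168 to 0.69 ± 0.0250) and MT-TD (1.00 ± 0.125 to 1.07 ± 0.0737) the groups overlapped. In MT-TM both classes were lower in the knockout without overlap. The paired bases went from 1.57% ± 0.177 to 1.03% ± 0.0153 and the unpaired ones from 2.55% ± 0.176 to 2.22% ± 0.0750. In MT-TW the paired bases stood at 0.523% ± 0.0826 and 0.528% ± 0.00302 while the unpaired ones went from 1.63% ± 0.133 to 1.90% ± 0.0167.

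**Figure D3:**
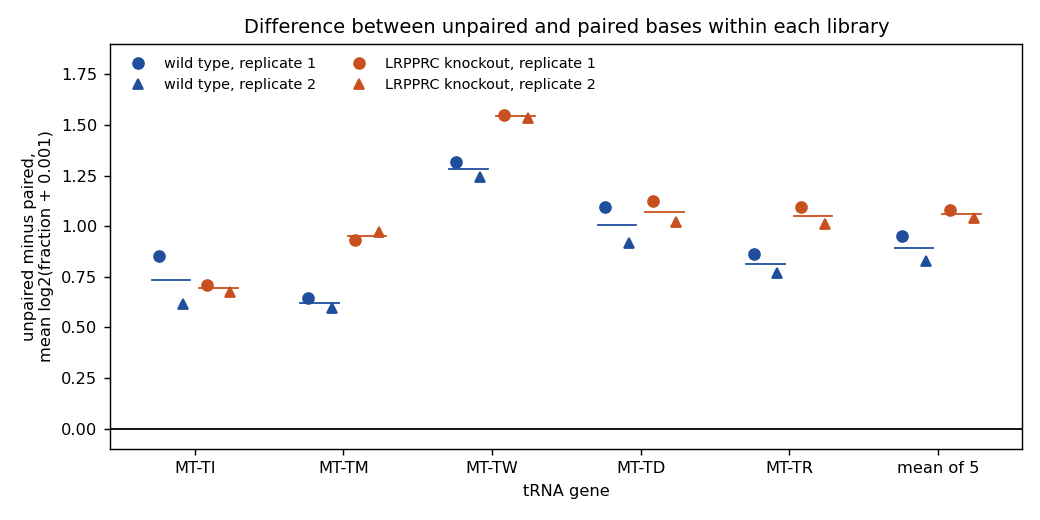
Mean log2(fraction + 0.001) of unpaired minus paired A and C within each library, for each tRNA and for their mean, where points are libraries and lines are group means. All values are above 0, and the knockout points lie above the wild-type points in MT-TM, MT-TW, MT-TR and the mean of 5.

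The parts of the cloverleaf did not move alike. The T loop (2.76% ± 0.0832) and the anticodon loop (2.51% ± 0.262) had the highest wild-type means over the 5 tRNAs, and the D loop had 1.22% ± 0.181. In the knockout these loops had 2.43% ± 0.00416, 2.43% ± 0.00873 and 1.40% ± 0.0429. The T stem went from 1.00% ± 0.134 to 0.758% ± 0.00802, the anticodon stem from 0.675% ± 0.106 to 0.547% ± 0.0254, and the acceptor stem from 1.07% ± 0.188 to 0.915% ± 0.0194. In log2 without scaling the D loop stood 0.21 higher in the knockout and the T stem -0.34. All 5 tRNAs had a lower T stem in the knockout mean, from -0.11 in MT-TI to -0.60 in MT-TM. On that scale the median change over all tested heavy-strand positions was -0.50. After centring 7 of the 22 tested T stem positions rose and 0 fell. The D loop was higher without overlap in MT-TW (0.924% and 1.07% to 1.56% and 1.60%) and MT-TR (0.500% and 0.547% to 0.925% and 0.825%). It was not higher beyond the spread in MT-TI (1.59% ± 0.253 to 1.56% ± 0.0598) or MT-TD (1.46% ± 0.265 to 1.53% ± 0.0758), and in MT-TM it went from 1.60% ± 0.264 to 1.36% ± 0.117.

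**Figure D4:**
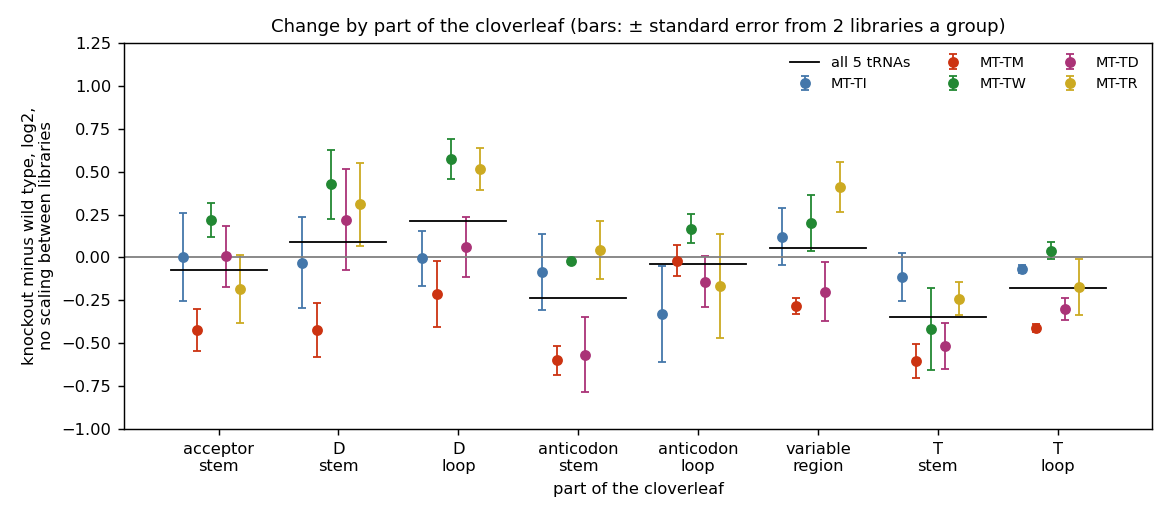
Log2 change from wild type to knockout, without scaling between libraries, by part of the cloverleaf, with 1 point a tRNA, bars for ± the standard error from the 2 libraries of each group, and black lines for all 5 together. The D loops of MT-TW and MT-TR lie above 0 and the T stems of all 5 tRNAs lie below it. The median change over all tested heavy-strand positions on this scale was -0.50.

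At single positions 174 of the 178 had a mean fraction between 0.002 and 0.3 and were tested, within a limma fit over 9910 heavy-strand positions. After centring 110 rose and 1 fell. That is 63.8% called, beside 71.5% of all positions tested, made up of 44.9% that rose and 26.6% that fell. Without centring 20 rose and 34 fell, so that fewer were called than after centring, beside 83.0% of all positions tested, made up of 4.73% that rose and 78.3% that fell. Both knockout libraries lay above both wild-type libraries at 35 of the 174 and below both at 61, beside 92.1% of all positions (7.45% higher and 84.6% lower). The median change was 0.54 after centring and -0.09 without it, beside 0.13 and -0.50 over all tested positions.

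By tRNA, the positions that rose after centring were 30 of 34 in MT-TW, 26 of 35 in MT-TI, 20 of 32 in MT-TR, 18 of 35 in MT-TD and 16 of 38 in MT-TM. Without centring MT-TW had 10 that rose and 0 that fell, and MT-TM had 2 that rose and 20 that fell. MT-TD had 2 and 10, and MT-TI and MT-TR had 3 and 2 each. By part, the D loops had 20 of 23 that rose after centring, and 6 that rose and 0 that fell without it. The T stems had 7 of 22 that rose after centring, and 1 that rose and 6 that fell without it. The anticodon stems had 9 of 24 after centring, and 1 and 7 without it. Cytosines were called lower more than higher without centring, 15 against 7 of 55, and adenines had 19 lower and 13 higher of 119. Over all tested heavy-strand positions 78.3% fell and 4.73% rose without centring, and 26.6% fell and 44.9% rose after it.

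The most reactive unmodified base of the 5 tRNAs was the cytosine at position 35 of MT-TM, the 3′ base of the anticodon loop, with 9.03% and 8.77% in wild type against 9.03% and 9.40% in the knockout. The groups overlap, the change was 0.05 without centring (adjusted p 0.295), and the rise after centring was 0.68 (adjusted p 0.000337). The next in MT-TM was the cytosine at position 55, in the T loop, with 5.29% and 5.37% in wild type against 3.17% and 3.11% in the knockout. It was the 1 position that fell after centring (-0.12, SE 0.02, adjusted p 0.0122), and it fell by 0.75 without it. The cytosine at position 36, just 3′ of the reactive base and paired in the anticodon stem, had 0.424% and 0.571% in wild type against 0.226% and 0.228% in the knockout, the largest fall in MT-TM without centring (-0.86, adjusted p 0.00574). The cytosine at position 30 in the same loop had the largest rise of that tRNA, from 1.83% and 2.02% to 2.36% and 2.82%, or 1.04 after centring (adjusted p 0.00111) and 0.41 without.

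In MT-TW the highest base was the cytosine at position 34, the middle base of the anticodon, with 4.41% and 5.68% in wild type against 4.70% and 4.29% in the knockout, which overlap. The cytosine at position 53 in the T loop had 3.55% and 4.07% in wild type against 4.57% and 4.49% in the knockout, with no overlap, a rise of 0.88 after centring (adjusted p 0.000669) and 0.25 without (adjusted p 0.0218). The largest rise was at the adenine of position 16 in the D loop, from 0.515% and 0.701% to 1.26% and 1.22%. That is 1.56 after centring (SE 0.15, adjusted p 0.00113) and 0.93 without (adjusted p 0.00339).

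In MT-TD the cytosine at position 50, the first base of the T loop, had 4.70% and 5.48% in wild type against 4.74% and 4.70% in the knockout, which overlap. The largest rise was at its first base, a paired adenine, from 0.928% and 1.25% to 1.76% and 2.16%, or 1.43 after centring (adjusted p 0.00204) and 0.80 without. The cytosine at position 65, on the other strand of the same stem, had 2.61% and 3.47% in wild type against 2.27% and 2.08% in the knockout, which fell by 0.45 without centring (adjusted p 0.0345) and stood 0.18 higher after it (adjusted p 0.308). The acceptor stem of MT-TD thus moved by strand, with a 5′ strand mean of 0.811% and 1.15% in wild type against 1.39% and 1.57% in the knockout. Its 3′ strand had 1.62% and 1.97% against 1.28% and 1.22%. Both strands showed no overlap, in opposite directions. The largest called fall of MT-TD without centring was at position 59, an adenine paired in the T stem (-0.95, adjusted p 0.00954). It had 0.266% and 0.413% in wild type against 0.112% and 0.136% in the knockout.

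The 3′ acceptor strand was also lower in MT-TM, at 2.58% and 2.92% in wild type against 1.65% and 1.71% in the knockout, while its 5′ strand had 0.997% ± 0.174 and 0.920% ± 0.00966. In MT-TR the 5′ strand had 0.184% and 0.249% against 0.279% and 0.350%, and the 3′ strand 0.475% and 0.695% against 0.437% and 0.319%. MT-TI had 5′ strand means of 1.14% ± 0.348 and 1.15% ± 0.0407 and 3′ strand means of 0.925% ± 0.235 and 0.716% ± 0.0131. In MT-TW the 5′ strand had 0.305% ± 0.0454 and 0.391% ± 0.0122 and the 3′ strand 0.500% ± 0.0462 and 0.540% ± 0.0354. These strands hold 2 to 5 probed bases each.

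In MT-TI the highest unmodified base was the adenine at position 55 in the T loop, with 3.92% and 3.60% in wild type against 3.67% and 3.19% in the knockout, which overlap. The next was the cytosine at position 56, with 2.53% and 2.71% in wild type against 2.33% and 2.43% in the knockout, with no overlap. The cytosine at position 60, paired in the T stem, rose from 0.737% and 0.723% to 1.36% and 1.22%, by 1.37 after centring (adjusted p 0.000405) and 0.74 without. A cytosine close to it, position 58, opposed to a base it cannot pair with, had 1.84% and 2.44% against 1.31% and 1.53%, the largest called fall of MT-TI without centring (-0.55, adjusted p 0.0232). In MT-TR the cytosine at position 32, the middle of the anticodon, had 1.51% and 2.24% in wild type against 1.65% and 1.65% in the knockout. The cytosine at position 35 of MT-TR, the next highest in wild type, had 1.46% and 1.66% against 1.53% and 1.005%, which overlap. The adenine at position 41 in the variable region had 0.280% and 0.240% against 0.587% and 0.616%, a rise of 1.59 after centring (adjusted p 0.000541) and 0.96 without. In its D loop the cytosine at position 17 had 1.21% and 1.09% against 2.33% and 2.01%, a rise of 1.49 after centring (adjusted p 0.000401) and 0.86 without. The cytosine at position 63 near the 3′ end had 0.654% and 1.12% against 0.387% and 0.200%, the largest fall of the 5 tRNAs without centring (-1.33, adjusted p 0.0180).

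The 7 A and C of the anticodons themselves, none of them in the list of sites set apart, had wild-type means from 1.46% to 5.04% and knockout means from 1.32% to 4.50%. After centring limma called 4 of the 7 higher and 0 lower. Without centring it called 0, with adjusted p from 0.0503 to 0.989. The percentages of the groups did not overlap at 2 of the 7, the MT-TI adenine and the MT-TM cytosine, both lower in the knockout. Over all tested heavy-strand positions, 44.9% were called higher and 26.6% lower after centring, and 83.0% were called without it. The groups did not overlap at 92.1% of them, with 84.6% lower in the knockout. In MT-TM the cytosine of the anticodon, which in the mature tRNA carries a formyl group away from the pairing face, had 2.81% and 3.58% in wild type against 2.46% and 2.56% in the knockout. The adenine beside it had 1.37% and 1.56% against 1.27% and 1.38%, which overlap. That adenine also had the most deletions of the 5 tRNAs, with 1.92% and 2.01% in wild type against 1.75% and 1.71% in the knockout. The cytosine of the MT-TD anticodon had 1.87% and 2.30% against 2.18% and 1.99%, and the adenine of the MT-TI anticodon 2.05% and 3.05% against 1.91% and 2.03%.

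Sites known to carry a methyl group at the pairing face stood high in most of these tRNAs. Position 9, between the acceptor stem and the D arm, is 1-methylguanosine in MT-TI and 1-methyladenosine in MT-TW, MT-TD and MT-TR. In MT-TI it had 17.2% and 12.8% in wild type against 11.1% and 8.27% in the knockout, with no overlap, beside a wild-type median of 0.231% for the other guanines of that tRNA. The cytosine opposite it in the light-strand file had 10.1% and 11.3% against 8.34% and 7.61%. In MT-TW it had 6.92% and 6.23% against 6.36% and 5.47%, which overlap. In MT-TD it had 5.03% and 4.89% against 9.78% and 8.37%, with no overlap, higher in the knockout.

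In MT-TR position 9 had 3.41% and 3.10% against 4.83% and 3.13%, which overlap, and it was the highest position of that tRNA in wild type. Position 16 of MT-TR, a further 1-methyladenosine, had 0.568% and 0.752% against 1.35% and 1.14%, with no overlap. Position 22 of MT-TI is the dimethylguanosine between the D and anticodon stems. It had 27.5% and 13.03% in wild type against 17.5% and 11.8% in the knockout, the highest wild-type mean of any base in the 5 tRNAs (20.3% ± 10.2), and the wild-type libraries differed by more than the groups. The bulky modified adenine 3′ of the anticodon had 1.91% and 2.57% against 2.23% and 2.25% in MT-TI and 2.09% and 1.95% against 2.60% and 2.11% in MT-TW, with overlap in MT-TI and none in MT-TW. No direction was shared by these sites, and since untreated RNA was not analysed here, the native and the DMS part of each value cannot be told apart.

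**Figure D5:**
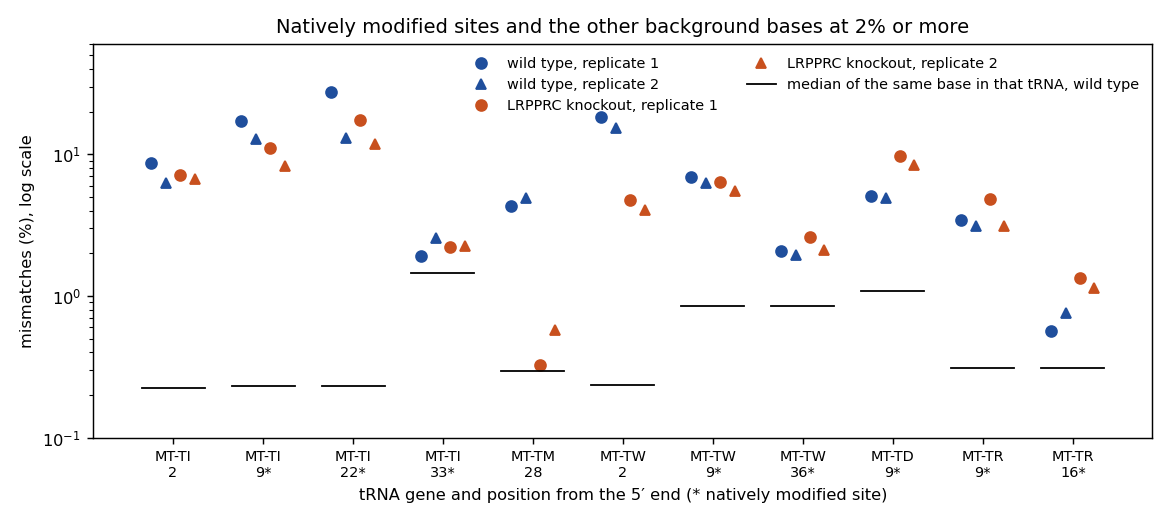
Mismatches (%, log scale) in each library at the natively modified sites (starred) and at the other G positions of 2% or more in wild type, with a black line for the wild-type median of the same base in that tRNA. Position 9 of MT-TI lies lower and position 9 of MT-TD higher in both knockout libraries, and the guanines at position 28 of MT-TM and position 2 of MT-TW lie far lower in both.

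Some background guanines with no listed modification were also high. The guanine at position 2 of MT-TW had 18.2% and 15.3% in wild type against 4.75% and 4.05% in the knockout, the largest difference in percentage points at any background base shown here. The guanine at position 2 of MT-TI had 8.64% and 6.25% against 7.19% and 6.66%, which overlap. The guanine at position 28 of MT-TM, in the anticodon stem, had 4.33% and 4.94% against 0.328% and 0.571%. The base opposite it in the light-strand file, a cytosine, moved with it, from 12.4% and 14.3% to 2.72% and 3.19%. The part of these bases in the results below was measured by leaving them out.

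Against the whole background of the tRNA, the A and C mean over the G and T mean was 3.47 ± 0.106 in wild type against 4.05 ± 0.263 in the knockout for MT-TM, 1.36 ± 0.228 and 2.48 ± 0.0520 for MT-TW, and 2.50 ± 0.457 and 2.32 ± 0.0577 for MT-TI. It was 3.32 ± 0.312 and 2.04 ± 0.0502 for MT-TD and 1.48 ± 0.135 and 0.755 ± 0.126 for MT-TR. The mean of the 5 ratios was 2.43 ± 0.194 and 2.33 ± 0.0459, which overlap (exact permutation p = 1.00). With the 3 high guanines left out, a choice made after seeing the data, the direction of MT-TM and MT-TW turned. The ratio was then lower in the knockout in all 5 tRNAs without overlap: 4.52 ± 0.200 to 4.06 ± 0.219 in MT-TM, 4.35 ± 0.179 to 3.42 ± 0.0525 in MT-TW, 4.00 ± 0.217 to 3.52 ± 0.0437 in MT-TI, and as above in MT-TD and MT-TR, which hold none of these guanines. The guanines were chosen by their wild-type value alone, and those of MT-TM and MT-TW were far lower in the knockout. Leaving them out therefore lowers mainly the wild-type background, and no conclusion is drawn from the turn.

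The G and T background of MT-TR bears on every value of that tRNA. Its mean was 0.345% and 0.480% in wild type against 0.777% and 0.865% in the knockout, above the A and C mean in both knockout libraries. In MT-TD it went from 0.429% ± 0.0190 to 0.630% ± 0.0136. In MT-TW without the high guanine it went from 0.247% ± 0.0147 to 0.355% ± 0.00346, and in MT-TI from 0.377% ± 0.0372 to 0.407% ± 0.0201. In MT-TM it went the other way, from 0.461% ± 0.0186 to 0.408% ± 0.0334. These background means and the A and C means moved in the same direction in MT-TW and MT-TM. In MT-TR both group means also rose, though its A and C values overlapped between the groups (0.604% ± 0.0853 and 0.616% ± 0.0572). The part of the background in the changes of the 5 tRNAs was not tested.

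The background bases were also set against the opposite strand, since a heavy-strand G or T faces a light-strand C or A. In MT-TD the Spearman correlation across these 31 positions lay between 0.70 and 0.80 in the 4 libraries, and in MT-TM between 0.59 and 0.68 across 30. In MT-TR it was 0.23 in both wild-type libraries and 0.56 and 0.59 in the knockout across 30. In MT-TI it ran from 0.19 to 0.40 across 31 positions, and in MT-TW from 0.19 to 0.31 across 30. The values of a library share that library's preparation and alignment, and positions are not replicates, so these are descriptions of each library. The light-strand A and C opposite MT-TD had 1.00% ± 0.0841 in wild type against 1.38% ± 0.0145 in the knockout, and those opposite MT-TR 1.20% ± 0.0232 and 1.23% ± 0.0242.

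The cloverleaf was also set beside the fold that ViennaRNA predicts for each isolated sequence without modifications. The predicted minimum free energy structure held 18 of the 19 cloverleaf pairs of MT-TI, 20 of 21 in MT-TD, 15 of 18 in MT-TM, 11 of 19 in MT-TW and 5 of 20 in MT-TR. The mean probability of the cloverleaf pairs was 0.775, 0.830, 0.772, 0.520 and 0.254 in the same order. In MT-TR the mismatch percentage tracked the cloverleaf more than the predicted fold. Its Spearman correlation across 33 A and C positions was 0.47 with being unpaired in the cloverleaf and 0.24 with the predicted unpaired probability in wild type. In the knockout these were 0.71 and 0.37. In MT-TD the order was the reverse, with 0.62 and 0.69 in wild type against 0.54 and 0.73 in the knockout. MT-TM had the lowest correlation with the cloverleaf in wild type, 0.33, and 0.54 in the knockout across 38 positions. These are descriptions across bases of 1 molecule, and the predicted fold knows nothing of tertiary contacts.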

How the data were processed

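Mismatch fractions in 4 libraries, 2 wild type and 2 LRPPRC knockout, were analysed as deposited. Per the file headers, the authors gave for every position a fraction of mismatches, a fraction that also counts deletions, and the base, in 1 file per strand and library. The series' design text states alignment to the mitochondrial genome, and the submitters' processing notes name cutadapt and Bowtie2. Versions, filters and read counts are not given in the sources used here, so depth is unknown. RNA was fragmented and library products were selected by size, per the labels' protocols.

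Positions were assigned to genes through the GRCh38.p14 gene table, lowered by 1 beyond position 3106. Arms were placed by hand and checked for complementarity. Natively modified sites came from general knowledge. Tested positions were A or C with a mean fraction of 0.002 to 0.3. The model was limma 3.58.1 (R 4.3.3; lmFit and eBayes with trend) on log2(fraction + 0.001), centred on each library's median for that file, with 9910 heavy-strand positions or 37 genes adjusted by Benjamini-Hochberg at 0.05, and was tested on simulated data. Single values within libraries used exact permutation. Folds used ViennaRNA 2.7.2 at 37 °C. Named positions were all modified sites, the 2 highest others in each tRNA and, in each tRNA, the largest called rise and fall. Where no called fall existed after centring, the largest without centring was named, a choice made after seeing the data. The high guanines, anticodon bases and position 17 of MT-TR were also named after their values were seen. Members and lists were chosen with earlier results of these data known. Deviations of same-numbered libraries from their group means did not correlate after centring (0.0007). Centring removes library-wide effects, so this cannot show whether those libraries were prepared together. The labels call the libraries biological replicates. Alternatives covered pseudocount, limits, bases, deletions, centring, modified sites, the replicate block (limma fits alone) and each library left out.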

Additional observations from a re-analysis of the deposited data

How the results depend on the processing

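With 2 libraries a group and no read counts, precision rests on the spread of 2 values, and no limit from depth can be given. The count of the 5 tRNAs called higher, 5 as reported, was 0 without centring (1 was then called lower), 2 with quantile normalization, 3 with A positions alone and 4 with a pseudocount of 0.0001 (MT-TM, adjusted p 0.0543), and ran from 0 to 5 when each library was left out. Fewer samples were fitted there. The 110 positions called higher became 62 with a lower limit of 0.01, 63 with A alone, 33 with C alone and 20 without centring, where the first 3 test fewer positions. The 1 position called lower became 0 with A or with C alone, 34 without centring and 3 with quantile normalization, and ran from 0 to 3 with each library left out. Without centring the change turned to -0.0309 in MT-TI, -0.350 in MT-TM and -0.174 in MT-TD. The 5 tRNAs minus the other heavy-strand tRNAs, 0.00124, was -0.0136 with a pseudocount of 0.0001 and -0.00678 with A alone, and ran from -0.0304 to 0.0329 with each library left out.

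Unpaired minus paired in MT-TD, 0.07, was -0.0157 with a pseudocount of 0.01, -0.189 with a lower limit of 0.01 and -0.0391 with A alone, and ran from -0.0204 to 0.156 with each library left out. In MT-TI it ran from -0.161 to 0.0768, and for the mean of 5 from 0.109 to 0.234. A pseudocount of 0.01 lowered it to 0.0786 for the mean of 5, 0.170 in MT-TM, 0.160 in MT-TW and 0.104 in MT-TR, and A alone to 0.0907, 0.140, 0.244 and 0.144. The A and C over G and T ratio changed by -0.185 in MT-TI, which became 0.130 with modified sites kept and ran from -0.509 to 0.138 with each library left out. The mean of the 5 ratios, -0.0968, ran from -0.234 to 0.0400. With medians in place of means the ratio turned in MT-TM (-0.587) and MT-TW (-0.905), and without the high guanines it was -0.453 and -0.936. The cause of these turns was not tested, and the guanines left out were chosen by their wild-type value alone. The limit of 0.01 left no value for unpaired minus paired in MT-TW, MT-TR and the mean of 5, as too few paired bases remained. The gap to the adjoining mRNAs kept its direction under every alternative run, but not its size or its lack of overlap. With each library left out it ran from 0.239 to 0.508 for the 5 together, from 0.0692 to 0.366 in MT-TD and from 0.0648 to 0.272 in MT-TM, lowest without wild-type replicate 1. The groups overlapped with A alone in MT-TD and MT-TM and with a pseudocount of 0.0001 in MT-TD. The replicate block called the same 5 tRNAs, with adjusted p from 4.02e-08 in MT-TI to 0.0162 in MT-TR. That fit leaves few residual degrees of freedom, so its p-values lean on the spread shared over all genes and add no support. In the position fit the block called 115 positions higher and 1 lower. The differences and ratios taken within libraries were not refitted with a block.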
